A study of Mus musculus with 6 samples.

Results

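The genes of the TRIM family were examined in granulocyte-monocyte progenitors (GMPs), precursors of neutrophils and monocytes. The GMPs were sorted from bone marrow of wild-type (WT) mice 3 days after myocardial infarction (MI), an injury in which part of the heart muscle dies. Control mice had MI alone, whereas the other mice had MI and sleep fragmentation (SF), a repeated breaking up of sleep. Each group had 3 RNA-seq libraries of polyadenylated RNA. Both groups carried the infarction, so its own effect is not compared here. The labels give neither age nor sex, and leave unsaid if libraries come from single mice or pools. P-values therefore set the group difference only against variation between these libraries, which may be partly technical and may not be variation between mice. TRIM genes were taken as the rows of the deposited read count table whose symbol is Trim followed by a number, with 10 or more reads in at least 3 of the 6 libraries. This gave 42 of 58 such rows, among 16539 genes in the table and 12097 genes tested. The table describes all 42 as tripartite motif-containing, and each reached the read minimum in at least 2 libraries of either group.

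TRIM proteins share a tripartite motif, made of a RING domain, B-box zinc fingers and a coiled coil, followed by a tail that differs between subfamilies. Most are E3 ubiquitin ligases, which attach ubiquitin to chosen proteins and so change their stability or their part in signalling. Many act in innate immunity, either by binding viruses directly or by tuning the sensors of foreign RNA and DNA, and some are themselves induced by interferon. Others act on chromatin, on the cytoskeleton or in muscle and red cell development.

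The libraries held between 28971253 and 31665923 reads counted to genes. The 2 groups were compared in all genes tested at once by the quasi-likelihood test of edgeR, with Benjamini-Hochberg adjustment and a threshold of 0.05. It called 0 of 12097 genes, with 341 (2.82%) at an unadjusted p under 0.05, while DESeq2 called 13 genes. Levels are in CPM, read counts scaled to the library size by TMM. A positive log2 fold change means a higher level after sleep fragmentation. Genes of the sorted cells were present at unequal levels. Mpo, myeloperoxidase, was at 10849 ± 840 CPM in control against 9219 ± 2123 CPM after sleep fragmentation (mean ± SD, n = 3 each). Cd34 was at 46.9 ± 17.3 against 39.0 ± 15.2 CPM. Of 13 such genes 3 were higher and 10 lower after sleep fragmentation. Groups did not overlap in 2, Prtn3 and Elane, both lower, beside 3.84% of all genes tested. Sleep fragmentation replicate 1 was the lowest library in 9 of the 13, beside 3446 of 12097 genes tested. The summed level of the 13 was 18244 to 20334 CPM in control and 13641 to 19523 CPM after sleep fragmentation. The 8 genes of eosinophils and basophils, such as Prg2 and Mcpt8, were also present, with summed levels of 3464 to 5710 CPM in control and 4080 to 6077 CPM after sleep fragmentation. The 20 late granule genes, which mark maturing neutrophils, had higher sums than either of these lists. These were 26140 to 46775 CPM in control and 27906 to 77378 CPM after sleep fragmentation. Summed levels of the remaining marker lists, given as the range in control and then after sleep fragmentation, were lower than those of the lists above. They were 7.96 to 27.2 and 16.6 to 33.3 CPM for 10 erythroid genes, and 12.4 to 20.9 and 13.8 to 18.9 CPM for 7 B cell genes. For 7 dendritic cell genes they were 14.8 to 23.9 and 22.1 to 23.1 CPM, and for 5 megakaryocyte genes 40.1 to 71.1 and 42.7 to 60.6 CPM. For 6 macrophage genes they were 194.4 to 271.3 and 206.1 to 275.3 CPM. Of the 6 T and natural killer cell genes in the table, Cd3e had 3 reads or fewer in each library, and the list's sum of 245.5 to 261.2 and 172.2 to 258.3 CPM came mostly from Nkg7. Cd3d, another T cell gene of that list, had 0.79, 1.24 and 0.76 CPM in control and 3.40, 0.93 and 3.65 CPM after sleep fragmentation. Its log2 fold change was 1.51 (SE 0.55, edgeR unadjusted p = 0.023), and its part in the results was not tested. In these bulk samples fewer cells of a type and less RNA per cell cannot be told apart.

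Per kilobase of exon, the measure on which genes can be compared with each other, Trim28 stood highest of the 42 TRIM genes. It had 58.5 ± 5.47 CPM per kilobase (SD, n = 3) in control. Trim59 followed with 27.0 ± 3.52, Trim12c with 21.7 ± 1.21, Trim11 with 20.8 ± 2.28 and Trim27 with 19.4 ± 0.82 CPM per kilobase. Trim28 lay above all others beyond the spread between replicates, whereas Trim12c and Trim11, and Trim11 and Trim27, differed by less than the SD of Trim11. Trim30a, one of the interferon-inducible members, had 16.6 ± 2.36 CPM per kilobase. At the low end were Trim9 with 0.043 ± 0.011, Trim7 with 0.11 ± 0.031, Trim17 with 0.18 ± 0.054 and Trim62 with 0.19 ± 0.12 CPM per kilobase.

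The TRIM genes with the smallest p-values lay in 1 stretch of chromosome 7, which holds Trim6, Trim34a, Trim5, Trim12a, Trim34b, Trim12c, Trim30b, Trim30c, Trim30a and Trim30d in this order. Mouse Trim5, the Trim12 genes and the Trim30 genes are relatives of primate TRIM5, which binds retroviral capsids. The fitted level was higher after sleep fragmentation in 9 of these 10 genes, and the median log2 fold change was 0.45, or 1.37-fold. Over the 32 TRIM genes elsewhere the median was 0.0073, with 17 higher, and over all genes tested it was -0.0043 (49% higher). Of the 10 genes 0 passed the test over all genes tested (edgeR adjusted p = 0.99988 for each). An unadjusted p under 0.05 was reached by 6 of the 10 genes, all with a higher level, and by 0 of the 32 others. Of all genes tested 2.16% reached it with a higher level. Since these genes were chosen with results known, no test is given for the group as a whole.

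The promoters of these genes are shown because those 6 share a short element. RefSeq promoter windows (build GRCm38.p6, from 250 bases before to 50 bases after the start of the transcript) were searched on both strands for GAAA, any 2 bases and GAAA, the core of the interferon-stimulated response element, to which interferon-activated transcription factors bind. All 10 genes had a window, and 6 held the motif: Trim34a, Trim5, Trim12a, Trim12c, Trim30a and Trim30d, the same 6 genes that had an unadjusted p under 0.05. Trim6, Trim34b, Trim30b and Trim30c had no match, which says only that these letters are not in the window. Among the 21 other TRIM genes with a window, the match was found in Trim21 and Trim26. Neither of them had a small p (edgeR unadjusted p = 0.48 for Trim21 and 0.42 for Trim26). Whether the motif has a part in the group difference of any gene was not tested. Of the 27025 genes with a window 3.99% held the motif, as did 3.44% of all 32851 windows. Of the 375 tested genes that held it, 41 (10.9%) had an unadjusted p under 0.05 in either direction, the 6 Trim genes among them. Over all genes tested this share was 2.82%. Each of the following windows of 30 bases is written 5′ to 3′ along its gene, with the motif in capitals, where TTTC, any 2 bases and TTTC is the same motif on the other strand. In Trim21 and Trim26 the capitals cover 2 overlapping matches.
Trim34a (chr7:104244457-104244486, plus strand): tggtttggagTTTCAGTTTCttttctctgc
Trim5 (chr7:104288136-104288165, minus strand): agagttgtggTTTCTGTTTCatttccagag
Trim12a (chr7:104315466-104315495, minus strand): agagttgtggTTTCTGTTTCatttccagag
Trim12c (chr7:104353359-104353388, minus strand): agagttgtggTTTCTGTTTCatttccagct
Trim30a (chr7:104465210-104465239, minus strand): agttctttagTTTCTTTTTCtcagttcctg
Trim30a, second start (chr7:104446104-104446133, minus strand): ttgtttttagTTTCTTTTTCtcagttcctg
Trim30d (chr7:104507871-104507900, minus strand): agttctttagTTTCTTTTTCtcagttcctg
Trim21 (chr7:102565447-102565476, minus strand): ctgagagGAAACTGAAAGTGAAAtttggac
Trim26 (chr17:36836979-36837008, plus strand): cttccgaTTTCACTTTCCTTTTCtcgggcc

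The Trim5 and Trim12a windows are identical, as are those of Trim30d and the first-listed start of Trim30a. The Trim12c window differs from that of Trim5 only in its final bases. Matches in such copies are not independent of each other. The motif lies from 49 to 40 bases before the start in Trim5, from 41 to 32 in Trim30d, from 36 to 27 in Trim30a and from 29 to 20 in Trim12c. It lies within the transcribed sequence in Trim34a and Trim12a, at bases 11 to 20, and at the second start of Trim30a, at bases 3 to 12. The likeness of the Trim30a and Trim30d promoters reaches beyond the motif: aligned on it, 226 of 245 bases (92.2%) upstream of the start are the same. Both upstream sequences are given below in full, ending at the last base before the start, with the motif in capitals.
Trim30a (chr7:104465194-104465443, minus strand): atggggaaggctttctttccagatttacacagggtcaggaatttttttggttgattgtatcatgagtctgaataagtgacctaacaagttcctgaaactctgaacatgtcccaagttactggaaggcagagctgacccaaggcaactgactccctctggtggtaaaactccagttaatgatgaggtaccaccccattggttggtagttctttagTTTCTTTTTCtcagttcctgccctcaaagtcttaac
Trim30d (chr7:104507850-104508099, minus strand): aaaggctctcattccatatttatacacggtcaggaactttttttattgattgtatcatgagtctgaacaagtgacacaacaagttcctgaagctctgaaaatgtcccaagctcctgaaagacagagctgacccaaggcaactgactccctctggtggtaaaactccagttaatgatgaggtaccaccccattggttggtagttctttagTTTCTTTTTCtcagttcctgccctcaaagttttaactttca

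Near-identical copies can exchange reads at counting, so it was asked how much transcript sequence these genes share. Of all stretches of 100 bases in its GENCODE vM21 transcripts, Trim34b shared 30.5% with Trim34a, and Trim34a shared 21.0% with Trim34b. Trim5 shared 11.7% with other genes, mostly Trim12c and Trim12a, and Trim12c shared 8.05%. Trim30a and Trim30d shared 4.41% and 4.57%, with each other, and Trim12a shared 2.87%. Trim30b, Trim30c and Trim6 shared none. By shared sequence alone, the values of Trim34a, Trim34b and Trim5 are therefore the least certain of the 10 as levels of a single gene. Overlap on the chromosome is a further source of doubt for Trim30b, which lies within the span of Gm38525.

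Trim30a, which in mouse restrains NF-kB signalling by promoting the loss of the adaptors TAB2 and TAB3, had 58.8, 67.5 and 78.1 CPM in control replicates 1 to 3. It had 124.0, 90.3 and 90.0 CPM in sleep fragmentation replicates 1 to 3. All 3 sleep fragmentation libraries lay above all 3 control libraries, with replicate 1 well above the other two. The log2 fold change was 0.57 (SE 0.16, 1.49-fold, edgeR unadjusted p = 0.0067, adjusted p = 0.99988). Trim30d, a close relative of Trim30a, had 16.6, 14.7 and 20.3 CPM in control and 31.9, 21.6 and 21.5 CPM after sleep fragmentation. Its groups did not overlap either, though control replicate 3 came close to sleep fragmentation replicates 2 and 3, and its log2 fold change was 0.54 (SE 0.20).

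Trim34a, whose human counterpart acts on retroviral capsids together with TRIM5, had 14.2, 16.2 and 14.4 CPM in control and 29.4, 20.2 and 21.2 CPM after sleep fragmentation. The groups were well apart, and this gene had the smallest p of the 42, with a log2 fold change of 0.66 (SE 0.18, 1.58-fold, edgeR unadjusted p = 0.0050, adjusted p = 0.99988). Its close copy Trim34b had 5.15, 5.06 and 4.35 CPM in control and 6.77, 4.39 and 8.74 CPM after sleep fragmentation. There the groups overlapped, because sleep fragmentation replicate 2 lay at the level of the controls (log2 fold change 0.45, SE 0.28). The value was 0.20 without sleep fragmentation replicate 3 and 0.68 without replicate 2.

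Trim12a, Trim12c and Trim5 had sleep fragmentation replicate 1 as the highest library and control replicate 1 as the lowest. Trim12a had 48.8, 55.4 and 52.8 CPM in control and 87.2, 56.0 and 71.5 CPM after sleep fragmentation, without overlap but with replicate 2 only just above control replicate 2. Trim12c, which in mouse has been linked to type I interferon and NF-kB signalling, had 78.3, 86.2 and 78.4 CPM in control and 133.4, 84.2 and 107.8 CPM after sleep fragmentation. Here replicate 2 fell within the control range. Trim5 had 12.9, 16.9 and 14.4 CPM in control and 25.7, 18.1 and 16.8 CPM after sleep fragmentation, where replicate 3 lay just below control replicate 2. Their log2 fold changes were 0.45 (SE 0.16), 0.42 (SE 0.16) and 0.45 (SE 0.20).

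The remaining 3 genes of the stretch had few reads. Trim30b had 2.08, 5.76 and 3.29 CPM in control and 11.1, 3.71 and 4.57 CPM after sleep fragmentation. Its log2 fold change of 0.79 (SE 0.49) was the largest of the 42, and sleep fragmentation replicates 2 and 3 lay within the control range. The value was 0.16 without sleep fragmentation replicate 1 and 0.51 without control replicate 1. Without control replicate 2, the highest control, it was 1.27 (edgeR unadjusted p = 0.034), where 6.18% of all genes tested had an unadjusted p under 0.05. Reads of Trim30b cannot be told apart from those of Gm38525, whose span contains it. Trim30c had 1.04, 1.08 and 1.16 CPM in control and 1.23, 0.93 and 1.55 CPM after sleep fragmentation, and the groups overlapped. Trim6, which in human makes free ubiquitin chains that aid interferon signalling, had 5.11, 3.50 and 3.32 CPM in control and 2.95, 2.78 and 2.88 CPM after sleep fragmentation. It was the 1 gene of the stretch with a lower fitted level, without overlap of the groups (log2 fold change -0.47, SE 0.29), and it sits at the end of the row opposite to Trim30d. Without control replicate 1 its log2 fold change was -0.25. In all, 5 of the 10 genes had groups without overlap, 4 higher and 1 lower. Over the 42 TRIM genes this was 4 higher and 2 lower, beside 6.75% of all genes tested, of which 2.92% were higher and 3.84% lower.

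**Figure D1:**
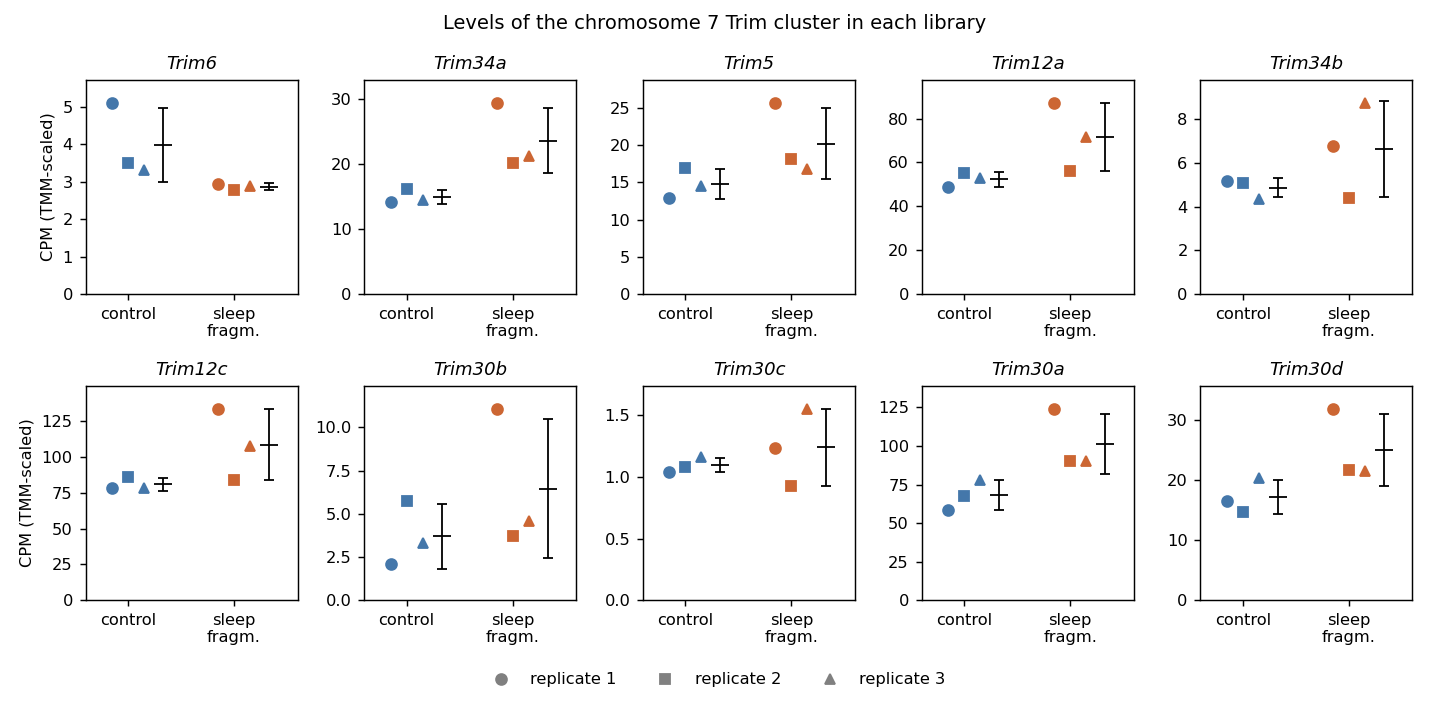
Level in CPM (vertical axes, from 0) of the 10 Trim genes of the chromosome 7 stretch, in their order along the chromosome, in 3 control libraries (blue) and 3 sleep fragmentation libraries (orange); the marker shape gives the replicate number, and the bar beside each group gives its mean and SD. Trim30a, Trim30d, Trim34a and Trim12a show no overlap with higher levels after sleep fragmentation, Trim6 shows none with lower levels, and sleep fragmentation replicate 1 is the highest library in 7 of the 10 genes.

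Single libraries weighed on these values. Sleep fragmentation replicate 1 was the highest of the 6 libraries in 7 of the 10 genes, beside 27.7% of all genes tested. Without it the median log2 fold change of the 10 genes was 0.26. An unadjusted p under 0.05 was kept by 2 of them, Trim30a and Trim34a, beside 2.21% of all genes tested. The same 2 genes kept it without control replicate 1 (1.26% of all genes tested), and 3 kept it without control replicate 3 (1.66%). Without replicate 1 of both groups the median was 0.23 and 1 gene, Trim34a, had an unadjusted p under 0.05 (Trim30a, edgeR unadjusted p = 0.055). In that setting 1.90% of all genes tested had such a p. Trim34a kept an unadjusted p under 0.05 in each of the 15 alternatives tried, with log2 fold changes between 0.41 and 0.76. Trim30a did so in 14 of them, with log2 fold changes between 0.31 and 0.68.

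Other groups of genes moved with these libraries. The 12 interferon-stimulated genes taken as a gauge, among them Ifit1, Isg15 and Rsad2, had median deviations from their 6-library mean of -1.35, -0.60 and -0.31 in control replicates 1 to 3. In sleep fragmentation replicates 1 to 3 these were 1.59, 0.34 and 0.56 on the log2 scale. The gauge was chosen with earlier results of these data known. All 12 of its genes were higher without overlap of the groups, beside 2.92% of all genes tested. Sleep fragmentation replicate 1 was highest in all 12, so the split of the gauge is not a result in itself. The 10 Trim genes had medians of -0.31, -0.12 and -0.22 in control and 0.56, -0.13 and 0.16 after sleep fragmentation, so that replicate 1 of either group stood at the 2 ends of both sets. The spread was much narrower for the Trim genes than for the gauge genes. The 20 late granule genes, which mark maturing neutrophils, had -0.49, 0.20 and -0.65 in control and 0.96, -0.34 and 0.42 after sleep fragmentation. Their summed level ran from 26140 to 46775 CPM in control and from 27906 to 77378 CPM after sleep fragmentation. With the score of these genes as a covariate, the median log2 fold change of the 10 Trim genes was 0.14. Trim30a (0.42) and Trim34a (0.41) were the 2 with an unadjusted p under 0.05, beside 7.46% of all genes tested. Late granule genes thus moved with the Trim genes, and their part in the result was not tested beyond this covariate.

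**Figure D2:**
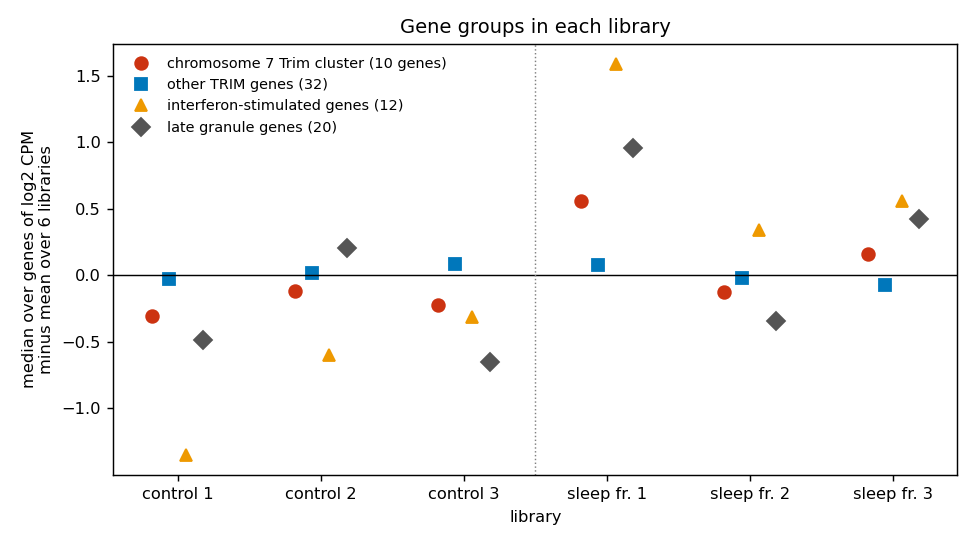
Median deviation of log2 CPM from the mean over 6 libraries (vertical axis) in each library (horizontal axis), for the 10 Trim genes of the chromosome 7 stretch, the 32 other TRIM genes, 12 interferon-stimulated genes and 20 late granule genes. Sleep fragmentation replicate 1 is highest for the 10 Trim genes (0.56), the interferon-stimulated genes (1.59) and the late granule genes (0.96), and the 32 other TRIM genes stay between -0.08 and 0.08 in all libraries.

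TRIM genes of innate immune signalling outside the stretch differed less. The fitted level was higher in 8 of 14 such genes (median log2 fold change 0.05), and 0 had an unadjusted p under 0.05 or groups without overlap. Trim25, which attaches ubiquitin chains to the RNA sensor RIG-I, had 60.9, 76.7 and 74.4 CPM in control and 115.4, 73.7 and 70.5 CPM after sleep fragmentation. Sleep fragmentation replicate 1 was alone above the controls (log2 fold change 0.29, SE 0.20), and without it the log2 fold change was 0.028. Trim56, which aids signalling from the DNA sensor pathway, also had sleep fragmentation replicate 1 highest, with 24.0, 27.3 and 25.3 CPM in control and 37.1, 23.6 and 24.1 CPM after sleep fragmentation. Trim21, the cytosolic receptor for antibodies, had 20.2, 21.7 and 19.9 CPM in control and 28.3, 21.7 and 17.8 CPM after sleep fragmentation, and its replicate 3 lay below all controls. For Trim21 and Trim56, whose log2 fold changes were 0.14 (SE 0.18) and 0.14 (SE 0.19), the sign changed without sleep fragmentation replicate 1.

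Trim14, an adaptor of the mitochondrial protein MAVS that has no RING domain, was the innate gene closest to a separation. It had 22.3, 22.0 and 31.0 CPM in control and 30.1, 30.5 and 30.1 CPM after sleep fragmentation, so that control replicate 3 alone reached the other group (log2 fold change 0.27, SE 0.16). Without that library, left out here as the only one that overlapped, its log2 fold change was 0.45, with an unadjusted p under 0.05. In that setting 1.66% of all genes tested had such a p. Trim62, which acts on the adaptor CARD9, had 0.92, 0.41 and 1.58 CPM in control and 0.30, 0.96 and 0.66 CPM after sleep fragmentation, from 52 reads or fewer in each library. Its log2 fold change of -0.59 (SE 0.64) was -0.045 without control replicate 3 and -0.26 without sleep fragmentation replicate 1. The other 9 genes had log2 fold changes between -0.27 (Trim65, which acts on the RNA sensor MDA5) and 0.17 (Trim26). The well expressed ones were close in both groups. Trim27 had 106.7 ± 4.50 against 97.3 ± 8.74 CPM (SD, n = 3 each), and Trim35 had 65.6 ± 2.67 against 61.5 ± 5.05 CPM. Trim8, which binds the cytokine inhibitor SOCS1, had 45.5 ± 2.35 against 47.7 ± 5.04 CPM, and Trim23, which carries an ARF-like GTPase domain, 23.3 ± 0.45 against 22.3 ± 1.05 CPM. The 95% intervals of these 4 log2 fold changes all included 0.

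The 3 chromatin TRIM genes did not separate the groups. Trim28, also called KAP1, is the co-repressor through which zinc finger proteins silence retroelements. It had 229.9, 230.2 and 269.4 CPM in control and 190.5, 242.4 and 190.4 CPM after sleep fragmentation. Replicates 1 and 3 lay below all controls and replicate 2 within their range, with a log2 fold change of -0.23 (SE 0.14, 95% interval -0.55 to 0.09). Without sleep fragmentation replicate 2, the library within the control range, its log2 fold change was -0.35 with an unadjusted p under 0.05. In that setting 10.8% of all genes tested had such a p. Without control replicate 3 the log2 fold change of Trim28 was -0.15. Trim24, a reader of histone marks that also acts on p53, had 36.9, 28.98 and 30.9 CPM in control and 27.6, 33.4 and 36.2 CPM after sleep fragmentation, with full overlap. Trim33, which acts in SMAD signalling and in blood cell development, had 96.1, 105.5 and 96.4 CPM in control and 116.9, 94.9 and 100.7 CPM after sleep fragmentation, again with overlap. The 95% intervals of their log2 fold changes were -0.34 to 0.35 and -0.20 to 0.33.

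The remaining 15 TRIM genes showed 1 pair of groups without overlap, beside 6.75% of all genes tested. Trim7, first known as a partner of glycogenin, had 1.11, 0.67 and 0.73 CPM in control and 0.30, 0.53 and 0.59 CPM after sleep fragmentation, from 35 reads or fewer in each library. Its log2 fold change of -0.81 (SE 0.52) was the lowest of the 42. Trim59, anchored in a membrane, had 87.1, 103.6 and 80.8 CPM in control and 95.1, 75.3 and 92.8 CPM after sleep fragmentation, with overlap. Among genes with other tails and targets, Trim41 had 61.0 ± 3.89 against 65.1 ± 6.42 CPM (SD, n = 3 each), Trim37, which acts on centrioles and peroxisomes, 68.9 ± 4.82 against 64.9 ± 6.40, and Trim39 46.9 ± 5.55 against 47.3 ± 2.16. Trim32 and Trim3, which carry NHL repeats, had 6.97 ± 0.89 against 7.23 ± 1.05 and 5.27 ± 1.04 against 5.13 ± 1.36 CPM. The cytoskeletal genes Trim9, Trim36 and Trim46 were at 0.44 to 3.25 CPM in each library. Trim17 shared 16.3% of its 100-base stretches with the histone gene Hist3h2a and Trim43c 14.4% with Trim43a and Trim43b, so reads of these 2 are uncertain.

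**Figure D3:**
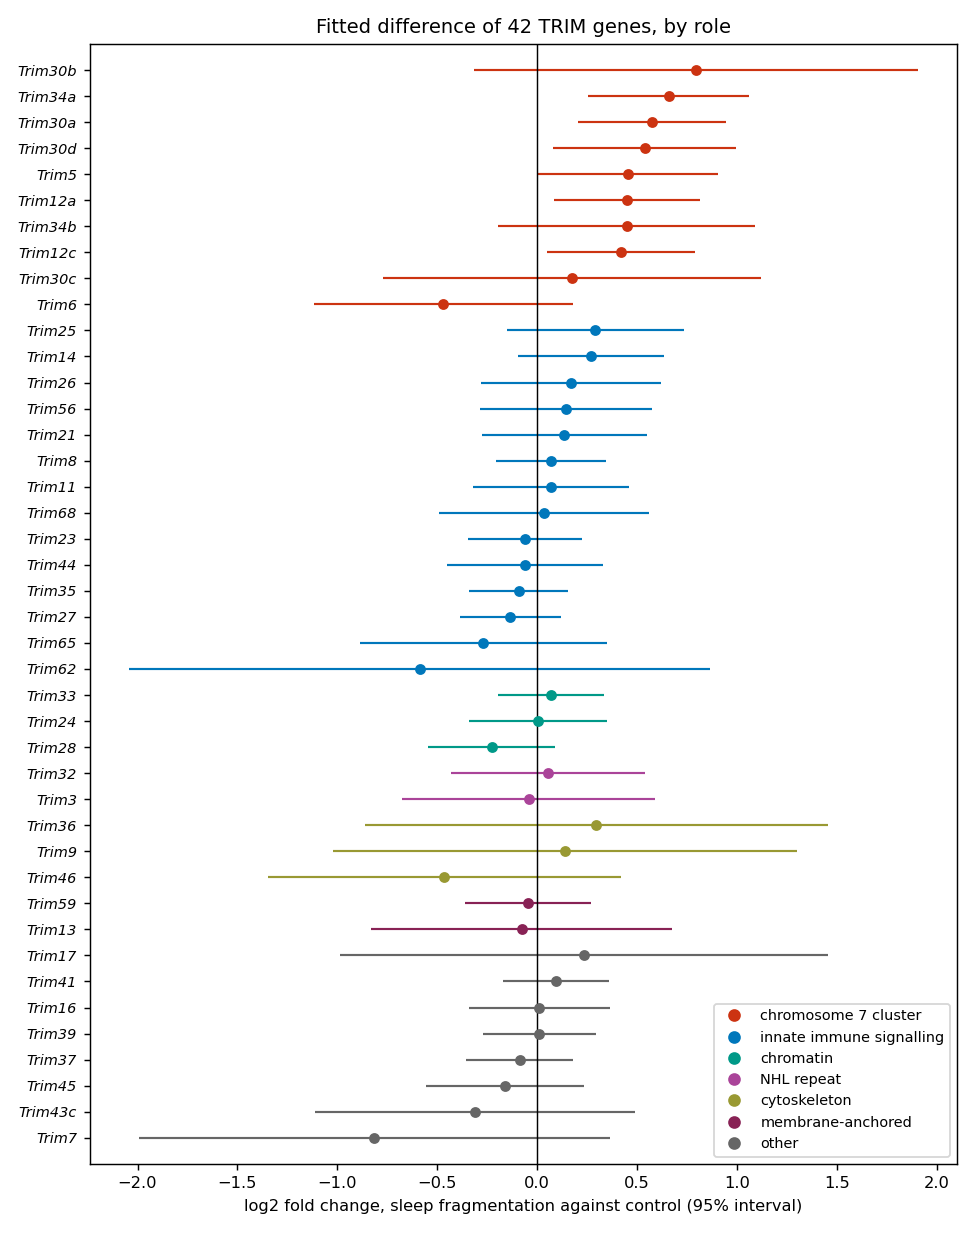
Log2 fold change of sleep fragmentation against control (horizontal axis) with its 95% interval for the 42 TRIM genes, grouped and coloured by role. The intervals of 6 genes of the chromosome 7 stretch lie above 0, and those of all 36 others include 0.

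**Figure D4:**
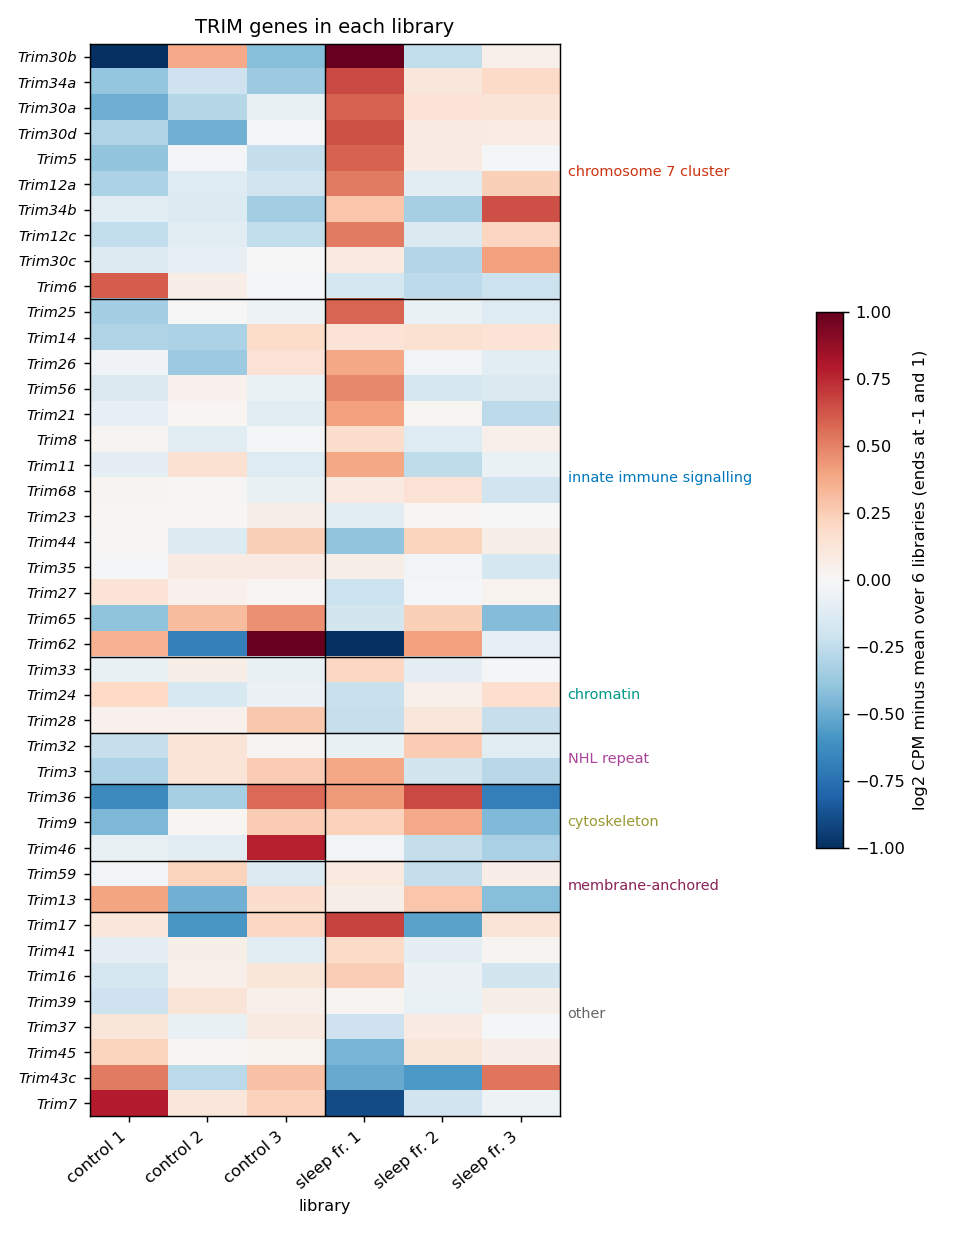
Deviation of log2 CPM from the mean over 6 libraries for the 42 TRIM genes (rows, grouped by role) in 3 control and 3 sleep fragmentation libraries (columns); red is above and blue below the mean, and colours end at -1 and 1. Most genes of the chromosome 7 stretch are blue in control and red in sleep fragmentation replicate 1, while rows of the other roles show no common split at the line between the groups.

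The 16 rows below the read minimum were Trim2, Trim10, Trim29, Trim43a, Trim43b, Trim47, Trim50, Trim54, Trim55, Trim58, Trim60, Trim63, Trim66, Trim67, Trim69 and Trim72. Their highest count in any library was 16 reads. Trim10 and Trim58, both of red cell precursors, had 32 and 18 reads in total. Of the muscle genes, Trim54 and Trim63 were listed at 0 in all libraries and Trim55 had 2 reads in total.

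Some TRIM proteins carry other names. Pml organizes nuclear bodies and is induced by interferon in many cells. It was at 86.7 ± 4.63 CPM in control against 73.0 ± 8.22 CPM after sleep fragmentation (mean ± SD, n = 3 each). Its groups did not overlap (log2 fold change -0.25, SE 0.12), and 3.84% of all genes tested were lower without overlap. Mefv, which encodes pyrin, had 120.4 ± 4.04 against 112.3 ± 13.0 CPM, and Mid1, which binds microtubules, had 7.17 ± 3.57 against 4.25 ± 2.37 CPM. Mid2 had 1 read or fewer in each library.

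The partners with which these ligases work were read from the same fit. Of 20 signalling partners of antiviral TRIM proteins, 4 had an unadjusted p under 0.05, all higher, beside 2.16% of all genes tested. Of the 20, 0 passed over all genes tested (edgeR adjusted p = 0.99988 for each of the 4). The 4 were the sensors Ddx58 (RIG-I), Ifih1 (MDA5) and Dhx58, and the transcription factor Irf7, all of them known interferon-stimulated genes. Ddx58 had 48.8 ± 4.16 against 77.2 ± 29.6 CPM, Ifih1 34.9 ± 5.43 against 48.3 ± 7.89, and Dhx58 17.3 ± 1.94 against 26.7 ± 9.74. Irf7, also one of the 12 gauge genes, had 11.5 ± 3.48 against 27.9 ± 17.8 CPM. The median log2 fold change over the 20 was 0.03, with 13 higher. The fitted level was higher in 8 of 13 ubiquitin-conjugating enzymes (median 0.05), and 0 had an unadjusted p under 0.05. Ube2l6, which also serves Isg15, had 25.3 ± 3.73 against 36.9 ± 14.9 CPM, and Ube2d1, Ube2n and Ube2d3 had log2 fold changes of 0.27, -0.18 and 0.18. Groups did not overlap in Ube2d1 and Ube2d3, both higher, beside 2.92% of all genes tested. The fitted level was higher in 3 of 14 silencing partners of Trim28 (median -0.05), and 0 had an unadjusted p under 0.05. The DNA methyltransferase Dnmt1 had 521.2 ± 23.1 against 454.5 ± 11.1 CPM. Uhrf1, its recruiting partner, had 289.3 ± 7.33 against 257.2 ± 18.6 CPM, and Morc3 184.7 ± 11.9 against 206.5 ± 4.22 CPM. Groups did not overlap in these 3, lower for Dnmt1 and Uhrf1 and higher for Morc3. Over all genes tested this was so in 6.75%, with 2.92% higher and 3.84% lower. Cbx1 had a log2 fold change of -0.15 with overlap.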

How the data were processed

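RNA-seq libraries of 6 samples, 3 per group, were grouped by their titles. The authors deposited raw read counts per gene. The tools were fastp, HISAT2 and HTSeq and the build was GRCm39, per the submitters' processing notes. Versions, strand setting and annotation release are not given in the sources used here. Without a strand setting, reads of overlapping genes cannot be told apart. Library totals were alike, and precision is limited by the number of libraries and, in genes of few reads, by counting.

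The deposited counts were fitted in edgeR 4.0.16 (R 4.3.3). Low genes were removed by filterByExpr (minimum count 10, minimum total 15), and the rest scaled by TMM factors of 0.910 to 1.086. Groups were tested by the quasi-likelihood F-test in its robust form (4 residual degrees of freedom, common biological coefficient of variation 0.206), with Benjamini-Hochberg adjustment. SE is the log2 fold change divided by the root of F. Deviations use log2 CPM with a prior count of 2. CPM per kilobase uses the union of exons in GENCODE vM21, and promoters come from RefSeq; both are of build GRCm38, not the authors' build. Chromosome order comes from RefSeq on GRCm38.p6, and 31 of the 42 TRIM genes had a promoter window.

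The TRIM genes, roles and lists were chosen with earlier results of these data known. Values per library are given for TRIM genes with an unadjusted p under 0.05, without overlap of groups, with the 3 largest or 3 smallest fold changes, or listed in advance. Names outside this rule complete a count, and up to 4 genes with the smallest p are named per partner list. Counts were also simulated, with 200 of 12097 genes changed among those with a mean of at least 5 CPM. There 20.3% of 1.5-fold, 80.6% of 2-fold and 99.4% of 4-fold changes were recovered, and 7.09% of calls were false. In the deposited counts Ifit1 (6.53-fold) and Rsad2 (4.10-fold) did not pass (edgeR adjusted p = 0.99988 for each). Recovery in the deposited libraries themselves was not tested. Alternatives were DESeq2 1.42.0, limma-voom (limma 3.58.1), other scalings and filters, a replicate block, a covariate and leaving out libraries.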

Additional observations from a re-analysis of the deposited data

How the results depend on the processing

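Under 15 alternatives 0 TRIM genes were called over all genes tested, and the lowest adjusted p was 0.36 (Trim34a, DESeq2). Log2 fold changes of 11 of the 20 TRIM genes named by the rule kept their sign in each alternative that could be fitted, as did 8 of the 10 chromosome 7 genes. Of the other 22 TRIM genes 17 changed sign in 1 or more alternatives, so directions near 0 are not to be read. DESeq2 called 13 genes over all. Where a value moved or turned, the cause was not tested.

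As reported, there were 6 TRIM genes at an unadjusted p under 0.05, all on chromosome 7. With the replicate number as a block it was 3 of 42 and 3 of the 10, beside 1.40% of all genes tested. Deviations of same-numbered libraries correlated at -0.40, -0.67 and -0.10, and no library correlated best with its own number. With 3 libraries per group these correlations are tied to each other, so they cannot tell if equal numbers share a preparation. With the late granule score as a covariate the number was 3 of 42 and 2 of the 10, with a median of 0.14 over the 10. With that covariate 7.46% of all genes tested had such a p, so the 3 of 42 are near the share over all genes. Without replicate 1 of both groups it was 1 of 42 and 1 of the 10, beside 1.90% of all genes tested, and the median over 42 was -0.028. Scaled by library size only, which moved the median of all genes to -0.11, 17 of 42 were higher and their median was -0.044. Leaving out 1 library at a time gave 2 to 8 of 42 and 2 to 7 of the 10 at an unadjusted p under 0.05, and 17 to 27 higher fitted levels. Over all genes tested the share at such a p ran from 1.26% to 10.8%. The 8 of 42 came without sleep fragmentation replicate 2, where that share was 10.8%. The summaries over the 10 genes were added after seeing the data.

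Signs turned as follows. By library size only, Trim24 had a log2 fold change of -0.10 and Trim33 of -0.039, and with no filter Trim24 had -0.0012. With the covariate, Trim21 had -0.016, Trim30b -0.13, Trim30c -0.0084, Trim33 -0.080, Trim56 -0.14 and Trim62 0.49. Without replicate 1 of both groups, Trim21 had -0.073, Trim25 -0.067, Trim30b -0.13, Trim33 -0.046 and Trim56 -0.14. With 1 library left out, values ran from -0.083 to 0.11 for Trim24, from -0.12 to 0.066 for Trim59 and from -0.060 to 0.28 for Trim21. They ran from -0.024 to 0.13 for Trim33, from -0.10 to 0.26 for Trim56 and from -0.020 to 0.35 for Trim30c. Trim7 and Trim62 had too few reads for the stricter filter. With 3 libraries per group an exact permutation test of a single value could not go below p = 0.1.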

Other observations

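The chromosome 7 stretch also holds Gm38525, a protein-coding gene in RefSeq whose span contains that of Trim30b. It had 6.76, 12.4 and 8.58 CPM in control replicates 1 to 3 and 35.0, 12.7 and 17.0 CPM in sleep fragmentation replicates 1 to 3. The groups did not overlap, although control replicate 2 and sleep fragmentation replicate 2 were almost level. The log2 fold change was 1.22 (SE 0.38), larger than that of any of the 42 TRIM genes. It did not pass over all genes tested (edgeR adjusted p = 0.99988), and it was named after its values were seen. As for Trim30b, sleep fragmentation replicate 1 was highest and control replicate 1 lowest. Without a stated strand setting, reads of the 2 genes cannot be told apart.

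The libraries of the sleep fragmentation group were more spread than those of the control group in 35 of the 42 TRIM genes (83.3%), measured as the SD of log2 CPM within a group. Over all genes tested this was so in 63.4%. The median SD over the TRIM genes was 0.18 in control and 0.32 after sleep fragmentation, and over all genes 0.19 and 0.24. This difference was not tested.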
